A study of Mus musculus with 2 samples.

Results

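The mitotic spindle, kinetochore and cytokinesis genes are a set of 50 genes, chosen by symbol, whose products condense, attach, pull apart and divide the chromosomes and the cell. Of the 50, 49 had at least 1 probe set naming that gene alone in the platform annotation, among 18193 genes so named in all. Ccnb1 was not paired with a probe set of its own in that annotation and was not analysed here. The 49 genes had 112 probe sets. They were placed in 8 groups by function: cyclins and kinases, checkpoint and anaphase promotion, kinetochore and centromere, kinesins, the chromosomal passenger complex, spindle assembly, cytokinesis, and chromatin and transcription.

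A cell enters mitosis when cyclin-dependent kinase 1, bound to its cyclins, becomes active. Kinetochores then tie chromosomes to spindle microtubules, and the spindle checkpoint holds the cell until every chromosome is attached. Ubiquitin ligation by the anaphase promoting complex ends the arrest, and a ring of actin and myosin cuts the cell apart. Transcripts for many of these proteins are most abundant in cycling cells, so in a tissue they are used as marks of such cells. Lung epithelium and mesenchyme of the fetus divide while they grow and slow down as the lung matures towards birth.

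RNA came from whole lungs of mouse embryos at embryonic day 18, pooled within each group, and was hybridised to Affymetrix arrays after biotin labelling. The wildtype group held 1 array of normal lungs, and the other group held 1 array of lungs homozygous for Nmyc9a, a reduced-function (hypomorphic) allele of Mycn. Mycn encodes N-Myc, a transcription factor of growing embryonic tissues. The labels used here do not say how many lungs were pooled, nor their sex or strain. With 1 array a group there is no replicate check, so no p-value is given, and the spread between embryos is unknown.

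Values below are signal intensities after the array labelled Nmyc9a was multiplied by 0.977, which put the median log2 ratio of the arrays at 0 over probe sets above the floor. The floor was a signal of 49.3, the 40th percentile, and a gene was called measured when the mean of its signals reached it. Each gene is represented by its brightest probe set unless others are named. Where pairs of signals are given, wildtype comes first, and log2 ratios are Nmyc9a over wildtype. A signal below the floor was raised to it before the ratio, and such a ratio is a bound, written as at least a fold or as a log2 value or lower. The only error that could be measured was how far measured probe sets of a gene disagreed, with an SD within genes of 0.40 (log2) over 5671 genes and of 0.56 over the 21 members with at least 2 measured probe sets. Deposited signal summed to 9239062 for wildtype and 8967799 for Nmyc9a, while the median probe set ran the other way, at 66.0 and 77.7. After scaling, 9 hybridisation spike-in probe sets had log2 ratios from 0.05 to 0.18. The Gapdh 3′ over 5′ signal was 0.770 and 0.683, that of Actb was 1.18 and 1.20, and 9 lung markers had log2 ratios from -0.14 to 0.54 (Sftpc 8639 and 8964). Mycn itself read 66.3 and 84.8 (log2 ratio 0.36) by its brightest probe set and 51.1 and 85.4 (0.74, which is 1.67-fold higher) by its other measured one. Its signal was thus higher on the array labelled for a reduced-function allele, and it does not check the label.

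Transcripts of the mitotic genes were lower on the array labelled Nmyc9a in nearly every member. Summed over the 49 genes, wildtype signal was 11662 and Nmyc9a signal 7224, which is 61.9% of the wildtype sum. Without any filter, 46 of the 49 genes had the lower signal on the array labelled Nmyc9a and 3 the higher (Tpx2, Kif15 and Cenph), while of all genes 54.4% had the lower signal there. The lowest log2 ratios belonged to Shcbp1 and Ect2, which act at the site of cell cleavage, to Spc25 of the kinetochore, to the kinesin Kif23, and to Bub1b, Ube2c and Mki67. Tpx2, which nucleates spindle microtubules, was the only measured member whose brightest probe set was higher.

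Of the 49 genes, 44 were measured, and 7 of these 44 reached the floor on the wildtype array alone. Those 7 (Bub1, Bub1b, Ttk, Cenpk, Spc25, Kif18a and Shcbp1) could only come out lower, so the count is also given without them. Among the 44, 27 were at least 1.5-fold lower (61.4%) and 0 were 1.5-fold higher, where 9.71% of all 12600 measured genes were that much lower and 6.32% that much higher. Among the 37 members at or above the floor on both arrays, 22 were 1.5-fold lower (59.5%) and 0 higher, where 9.35% of the 11849 such genes were lower and 5.28% higher. The median log2 ratio was -0.73 over the 44 and -0.65 over the 37, and it was -0.09 over all measured genes. Of the 44 genes 43 lay below 0, against 58.8% of all measured genes. At 2-fold, 10 of the 44 were lower, against 1.38% of all measured genes. The quartiles of the log2 ratio were -0.96 and -0.40 for the members and -0.35 and 0.19 for all measured genes. Ordered from the lowest log2 ratio, 22 of the 44 members stood among the 630 genes that make up the lowest 5% of measured genes. The ratio was hardly related to how bright a gene was (Pearson r of 0.13 across the 44 measured members, which share the same 2 arrays and are not replicates). Raising signals to the floor limits how low a dim gene can go, as for the 7 bounds, so r could be understated. In whole-lung RNA, fewer dividing cells and less of these transcripts in each dividing cell cannot be told apart.

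**Figure D1:**
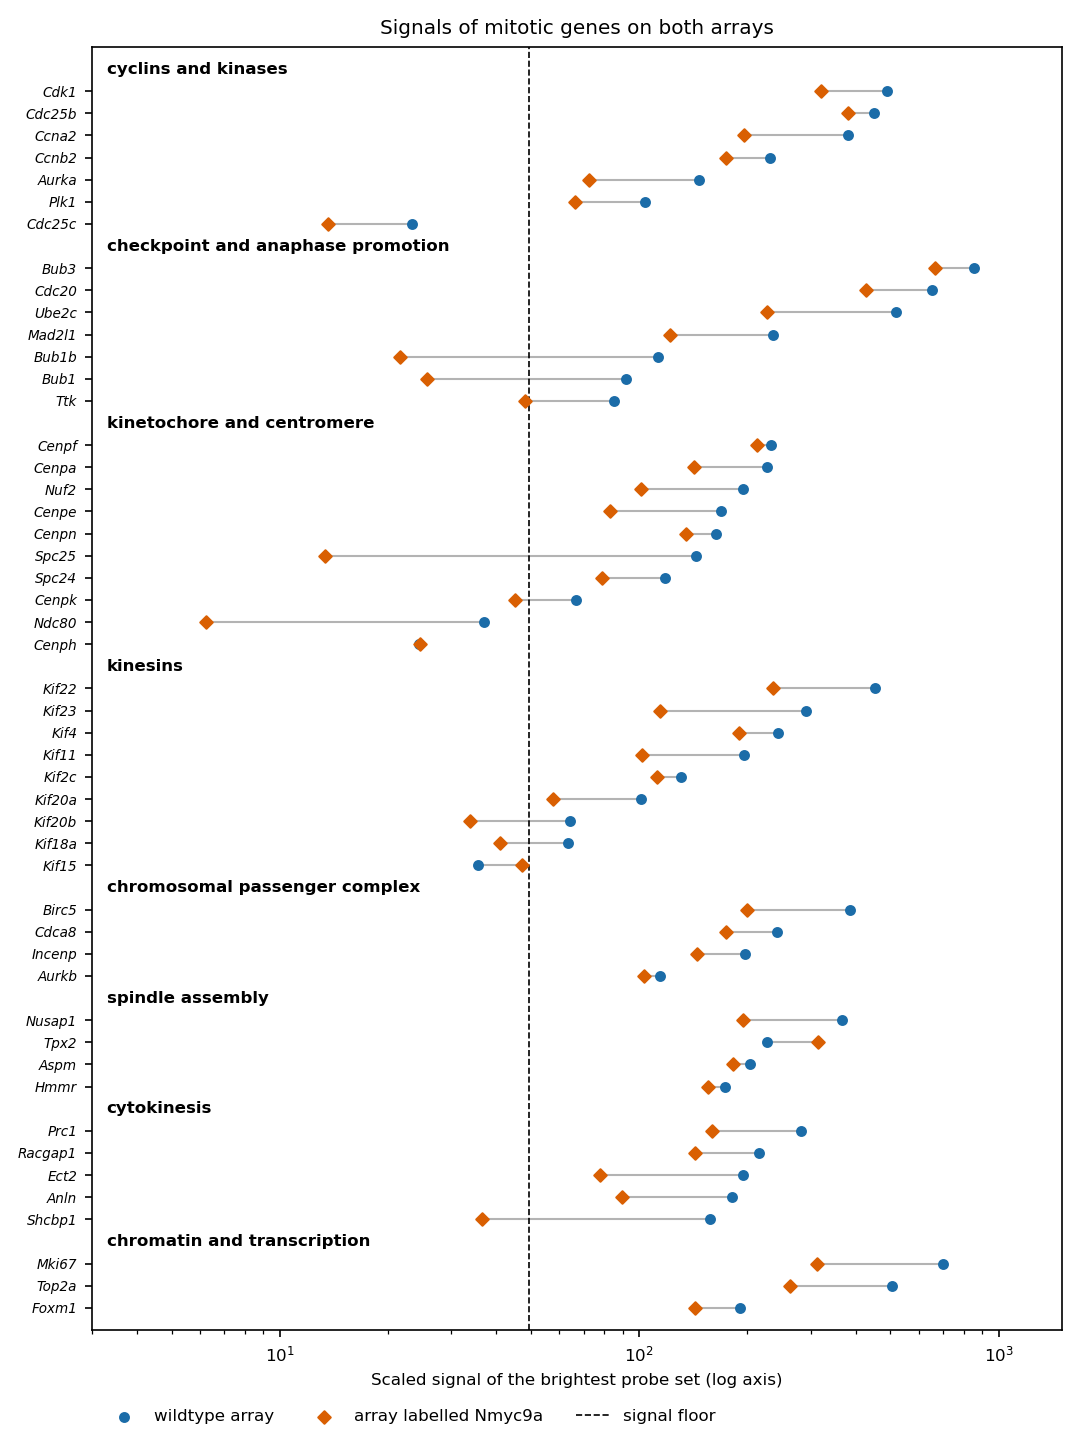
Scaled signal of the brightest probe set of each of the 49 genes, on a log axis, for the wildtype array (circles) and the array labelled Nmyc9a (diamonds), 1 array each, with genes grouped by function and the floor of 49.3 dashed. The diamond lies left of the circle for 46 genes, and to the right for Tpx2, Kif15 and Cenph.

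**Figure D2:**
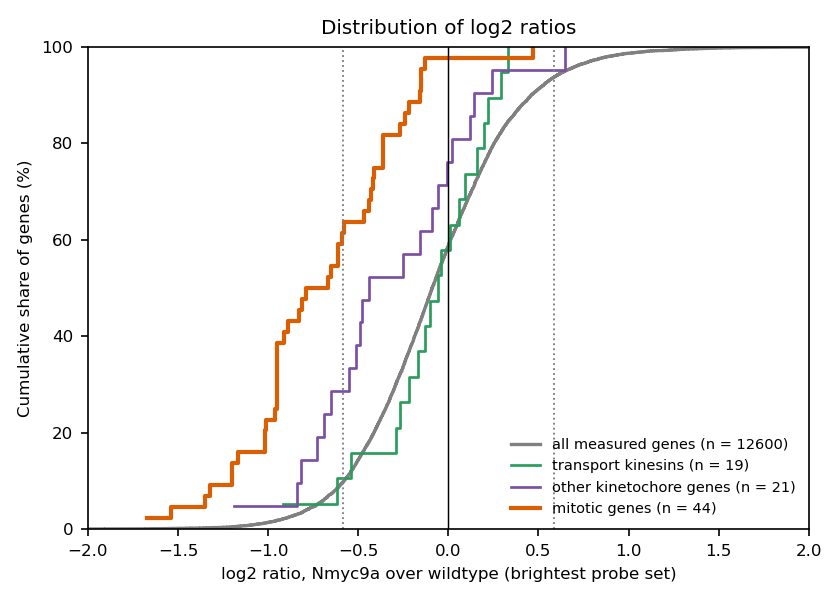
Cumulative share of genes (vertical axis, %) by log2 ratio of Nmyc9a over wildtype (horizontal axis) for the 44 measured mitotic genes, 21 other kinetochore genes, 19 transport kinesins and all 12600 measured genes, with 1.5-fold dotted. The median is -0.73 for the mitotic genes and -0.09 for all genes, and the curve of transport kinesins, with a median of -0.06, runs close to that of all genes.

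Promoters of many cell division genes share a pair of short elements. The cell cycle homology element binds the MuvB complexes, which silence these genes in resting cells and activate them before mitosis, and CCAAT boxes bind the factor NF-Y. RefSeq windows of GRCm38.p6, running from 250 bases before to 50 bases after the annotated start, were matched by symbol for 41 of the 50 members, and the others were Ccna2, Cdc25c, Spc24, Kif20a, Aurkb, Incenp, Tpx2, Shcbp1 and Foxm1. The letters TTTGAA of the cell cycle homology element, on either strand, were found for 30 of the 41 members (73.2%). They were found for 20.2% of all 27025 genes with a window and for 14.6% of the 10135 of these that were measured here. CCAAT on either strand was found for 31 members (75.6%), against 41.1% of all genes and 42.4% of measured genes. Both stood in the windows of 25 members (61.0%), against 8.97% and 6.96%. The E-box CACGTG, the motif that Myc proteins bind with Max and that reads alike on both strands, was found only for Ttk and Anln among the 41 members (4.88%), against 8.09% of all genes and 11.2% of measured genes. A match is a run of letters in this window and was not tested as a binding site. Overlapping matches were each counted.

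The 4 sequences below are shown because they belong to the lowest measured members that hold TTTGAA within the printed stretch, 200 bases before to 30 after the start, read 5′ to 3′ on the strand of the gene. Capitals mark TTTGAA or CCAAT and their reverse complements. Spc25, a subunit of the outer kinetochore, lies on the minus strand at chr2:69206184-69206413, Kif23 on the minus strand at chr9:61946770-61946999, Ect2 on the minus strand at chr3:27153825-27154054, and Ube2c on the plus strand at chr2:164769729-164769958, all in GRCm38.p6.
Spc25: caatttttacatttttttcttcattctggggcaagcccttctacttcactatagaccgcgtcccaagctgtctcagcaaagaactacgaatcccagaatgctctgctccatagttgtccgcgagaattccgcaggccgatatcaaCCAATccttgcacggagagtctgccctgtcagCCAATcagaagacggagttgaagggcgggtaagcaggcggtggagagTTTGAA
Kif23: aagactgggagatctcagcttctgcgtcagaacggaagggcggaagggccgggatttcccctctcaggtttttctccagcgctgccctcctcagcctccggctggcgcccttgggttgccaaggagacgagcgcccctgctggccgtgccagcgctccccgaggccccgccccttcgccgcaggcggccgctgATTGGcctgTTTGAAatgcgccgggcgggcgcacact
Ect2: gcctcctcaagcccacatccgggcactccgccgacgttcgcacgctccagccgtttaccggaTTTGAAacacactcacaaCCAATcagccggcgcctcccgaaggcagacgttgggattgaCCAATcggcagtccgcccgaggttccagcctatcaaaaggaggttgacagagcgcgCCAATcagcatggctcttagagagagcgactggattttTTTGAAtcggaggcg
Ube2c: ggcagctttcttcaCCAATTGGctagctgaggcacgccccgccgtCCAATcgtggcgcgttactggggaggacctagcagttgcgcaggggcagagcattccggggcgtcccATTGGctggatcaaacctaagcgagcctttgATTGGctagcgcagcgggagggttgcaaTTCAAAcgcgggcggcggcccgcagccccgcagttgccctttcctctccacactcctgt
The element starts at base 25 after the start in Spc25, at base 3 in Kif23 and at base 16 in Ect2, and at base -29 in Ube2c, where it lies on the opposite strand. Ect2 holds a further copy at base -138. CCAAT boxes precede it at -55 and -23 in Spc25 and at -120, -79 and -23 in Ect2. The signals of these genes were 144 and 13.4 for Spc25, 291 and 114 for Kif23, 194 and 77.9 for Ect2, and 518 and 226 for Ube2c.

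Matches clustered near the start. TTTGAA began within the 50 bases after the start in 41.3% of the 46 member windows and within the 50 bases before it in 23.9%, against 2.25% and 2.82% of all 32851 windows. CCAAT began between 100 and 50 bases before the start in 45.7% of member windows and within the last 50 bases in 47.8%, against 12.5% and 9.03%. Within the mitotic genes, ratios with and without the motif were compared as a description. The 27 measured members with TTTGAA had a median log2 ratio of -0.67, and 18 of them were 1.5-fold lower, while the 9 without it had a median of -0.91 with 6 lower. Over all measured genes the medians with and without it were -0.10 and -0.09.

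**Figure D3:**
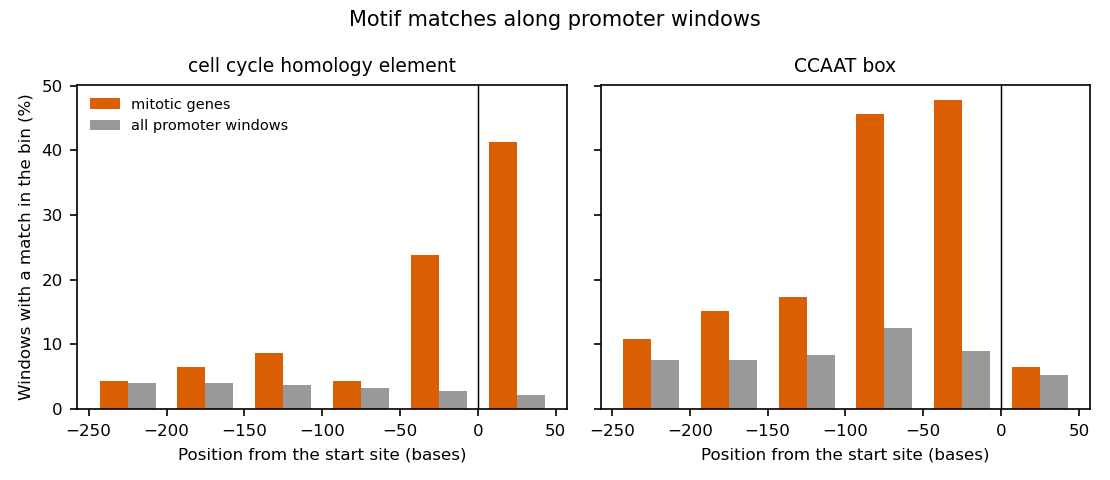
Share of promoter windows (vertical axis, %) with a match beginning in each bin of 50 bases, by distance from the annotated start (horizontal axis, bases), for 46 windows of the mitotic genes and all 32851 windows. Member windows stand out within 50 bases either side of the start for the cell cycle homology element (23.9% and 41.3%) and in the 100 bases before it for the CCAAT box (45.7% and 47.8%).

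Among cyclins and kinases, which drive entry into mitosis, 4 of 6 measured genes were 1.5-fold lower and all 6 lay below 0. Their median log2 ratio was -0.63. Of all measured genes, 9.71% were that much lower and 58.8% lay below 0. Cyclin A2, Ccna2, which partners kinases in S phase and at mitotic entry, read 382 and 196 (1.95-fold lower), and its other probe set read 332 and 191. Cdk1, the kinase that starts mitosis, read 490 and 320, a log2 ratio of -0.61. Ccnb2, cyclin B2, differed less, at 231 and 174 (log2 ratio -0.41). The ratios of Ccna2 and Cdk1 differed by less than the probe set SD of 0.40. Aurka, the kinase of the spindle poles, read 147 and 72.4 (2.03-fold lower), and Plk1, a kinase with roles from centrosome maturation to cytokinesis, read 104 and 66.3 (1.57-fold). Cdc25b, a phosphatase that switches Cdk1 on, was nearly alike at 451 and 382 (log2 ratio -0.24). Its relative Cdc25c lay below the floor on both arrays, at 23.3 and 13.6, and has no ratio.

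Of the checkpoint and anaphase genes, all 7 were measured and all 7 lay below 0, with a median of -0.89. Of the 7, 6 were at least 1.5-fold lower, beside 9.71% of all measured genes. Bub1b (BubR1), part of the complex that holds back the anaphase promoting complex, read 113 and 21.6, at least 2.29-fold lower. Bub1, a kinase at unattached kinetochores, read 91.6 and 25.7 (at least 1.86-fold lower), and the checkpoint kinase Ttk (Mps1) read 85.3 and 48.0 (at least 1.73-fold). These 3 were above the floor on the wildtype array only. Mad2l1, the Mad2 protein that binds Cdc20 to delay anaphase, read 236 and 122 (1.94-fold lower). Cdc20 itself, the activator of the anaphase promoting complex, read 653 and 428 by one probe set and 272 and 165 by another, with log2 ratios of -0.61 and -0.73. Ube2c, the ubiquitin-conjugating enzyme of that complex, was 2.29-fold lower. Bub3, which recruits Bub1 and Bub1b to kinetochores, was less than 1.5-fold lower at 851 and 663 (log2 ratio -0.36). Its 3 measured probe sets disagreed, with a second at 146 and 102 and the remaining one, close to the floor, at 41.9 and 82.3, a log2 ratio of 0.74 or higher.

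At the kinetochore and centromere, 4 of 8 measured genes were 1.5-fold lower, beside 9.71% of all measured genes. The group median was -0.63 (-0.27 without x, s and a probe sets, which can match several transcripts). The Ndc80 complex, a rod of 4 proteins that grips the microtubule end, was lower in each subunit as far as it could be read. Spc25 stood lowest at 144 and 13.4, at least 2.91-fold lower by its brightest probe set, but its second probe set was nearly alike at 73.0 and 67.1. Nuf2 read 195 and 101 (1.93-fold lower), and Spc24 read 118 and 78.8, a log2 ratio of -0.58 that lay just short of the 1.5-fold size. Ndc80 read 37.0 and 6.25, below the floor on both arrays, and has no ratio. Among centromere proteins, Cenpe, a motor that carries chromosomes to the spindle centre, read 169 and 83.0 (2.03-fold lower) with a second probe set at 110 and 68.3. Cenpa, the histone variant that marks centromeres, read 227 and 142 (1.59-fold lower), but a dimmer probe set was higher at 67.8 and 94.6 and the remaining one stood at 54.6 and 45.9. Cenpf, a large protein of the outer kinetochore, was nearly alike by its brightest probe set (233 and 213), lower by a second (116 and 40.5, a log2 ratio of -1.23 or lower) and higher by the remaining one (59.0 and 71.7). Cenpn, which reads the Cenpa nucleosome, stood at 163 and 135, and its other probe set at 117 and 67.6. Cenpk stood at 66.6 and 45.1, a log2 ratio of -0.43 or lower, and Cenph was below the floor at 24.4 and 24.5.

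Mitotic kinesins, motors that slide, shorten or load microtubules, were 1.5-fold lower in 4 of 7 measured genes, beside 9.71% of all measured genes. The median of these kinesins was -0.81 (-0.46 when each gene took the median of its probe sets). Kif23, which bundles microtubules between the separating chromosomes, was 2.55-fold lower by its brightest probe set, while another was higher near the floor (46.7 and 69.4, a log2 ratio of 0.49 or higher). Kif11 (Eg5), which pushes spindle poles apart, read 196 and 102, with its other probe sets at 161 and 84.3 and at 84.7 and 68.0, so all of its 3 were lower. Kif22, a motor on chromosome arms, read 453 and 235 (1.93-fold lower), and Kif20a, which works in cytokinesis, read 101 and 57.6 (1.75-fold lower). Kif4, which condenses chromosomes and shapes the central spindle, stood at 244 and 190 (log2 ratio -0.36), as did Kif18a, which limits microtubule length, at 63.4 and 41.1 (-0.36 or lower). Kif2c (MCAK), a microtubule depolymerase, was lower by all 4 of its probe sets to different degrees, from 69.0 and 62.2 (log2 ratio -0.15) to 132 and 72.1 (-0.87), and its brightest gave 131 and 112 (-0.22). Kif20b at 64.1 and 33.9 and Kif15 at 35.7 and 47.3 had mean signals below the floor.

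The chromosomal passenger complex corrects wrong attachments and later directs cytokinesis, and only 1 of its 4 genes was 1.5-fold lower, with a median of -0.45. The 1.5-fold lower gene was Birc5 (survivin), at 385 and 199 (1.93-fold lower). The scaffold Incenp read 197 and 145 (log2 ratio -0.44) and had 1 probe set of 3 at a larger difference (100 and 33.2). Cdca8 (borealin) read 242 and 174, and its other probe sets, at 120 and 65.0 and at 64.6 and 35.4, were lower too. The kinase of the complex, Aurkb, was nearly alike at 114 and 103 (log2 ratio -0.15). By their brightest probe sets the partners of 1 complex thus ranged from -0.95 to -0.15. The ratio of Aurkb was smaller than the probe set SD of 0.40. A second Aurkb probe set, with a mean signal below the floor, read 61.1 and 34.4 and has no ratio.

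Spindle assembly factors differed least, with a median of -0.16 (-0.25 by the median of probe sets, -0.10 when arrays were centred on probe sets with 1 gene) and 1 of 4 genes 1.5-fold lower. Nusap1, which bundles spindle microtubules around chromosomes, read 366 and 195 (1.88-fold lower). Tpx2 gave opposite answers by probe set. Its 2 brighter probe sets were higher on the array labelled Nmyc9a, at 227 and 315 (log2 ratio 0.47) and 241 and 280 (0.22), and its 2 dimmer ones were lower, at 125 and 85.0 (-0.56) and 91.4 and 49.8 (-0.88). Aspm, which focuses spindle poles, had 5 measured probe sets, and 4 of them lay between -0.19 and -0.10 while the remaining one, at 149 and 52.5, gave -1.50. Hmmr, a microtubule-binding protein of the poles, read 173 and 155 by its brightest probe set and 131 and 176 by another. A further one read 106 and 75.5, and the remaining measured one 71.7 and 45.7, a log2 ratio of -0.54 or lower. For these 3 genes the spread between probe sets was larger than the difference given by the brightest.

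Cytokinesis genes had a median of -1.01 and were at least 1.5-fold lower in 5 of 5, beside 9.71% of all measured genes. Differences between the 8 group medians were not tested. Shcbp1, found at the midbody between dividing cells, read 157 and 36.6, at least 3.18-fold lower. Ect2, the exchange factor that switches on RhoA at the cleavage site, was 2.50-fold lower. Racgap1, which joins Kif23 in the centralspindlin complex and recruits Ect2, was lower by both measured probe sets, at 215 and 143 and at 102 and 61.8 (log2 ratios -0.59 and -0.72). Anln (anillin), the scaffold of the contractile ring, read 181 and 89.8 (2.01-fold lower). Prc1, which cross-links the midzone microtubules, gave the same log2 ratio of -0.83 by both probe sets, 282 and 159 and 147 and 82.7.

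The 3 chromatin and transcription genes had a median of -0.95 (-0.42 without x, s and a probe sets, -0.52 by the median of probe sets). Mki67, the Ki-67 protein that coats mitotic chromosomes and is widely used to count cycling cells, read 702 and 313 (2.24-fold lower). Top2a, the topoisomerase that untangles sister chromatids, read 504 and 262 (1.93-fold lower), although a dimmer probe set was nearly alike at 111 and 104. Foxm1, the transcription factor that activates many genes of this set, differed less, at 191 and 143 (log2 ratio -0.42). A second Foxm1 probe set, below the floor on the wildtype array, read 31.0 and 79.0.

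Most measured probe sets of the members lay below 0. Of the 112 probe sets, 80 were measured, and 72 of these lay below 0 and 8 above. At 1.5-fold, 41 of the 80 (51.2%) were lower and 2 higher, where 9.24% of all 22457 measured probe sets with 1 gene were lower and 9.31% higher. Of the 80, 13 reached the floor only on the wildtype array and 3 only on the array labelled Nmyc9a. Without a filter, 78.6% of the 112 had the lower signal on the array labelled Nmyc9a, against 50.6% of all probe sets with 1 gene. All measured probe sets lay below 0 for 14 of the 21 members that had several, and for 5 (Ccna2, Cdc20, Cenpe, Prc1 and Racgap1) every one was 1.5-fold lower. The 7 with at least 1 probe set above 0 were Bub3, Cenpa, Cenpf, Kif23, Hmmr, Tpx2 and Foxm1. Of these, only Kif23 and Cenpa counted among the 27 lower genes. A further 23 members rested on 1 measured probe set, and 16 of those were 1.5-fold lower. Such counts by number of probe sets were not made over all genes. Probe sets disagreed more within members than within genes at large, with an SD of 0.56 against 0.40 (log2).

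**Figure D4:**
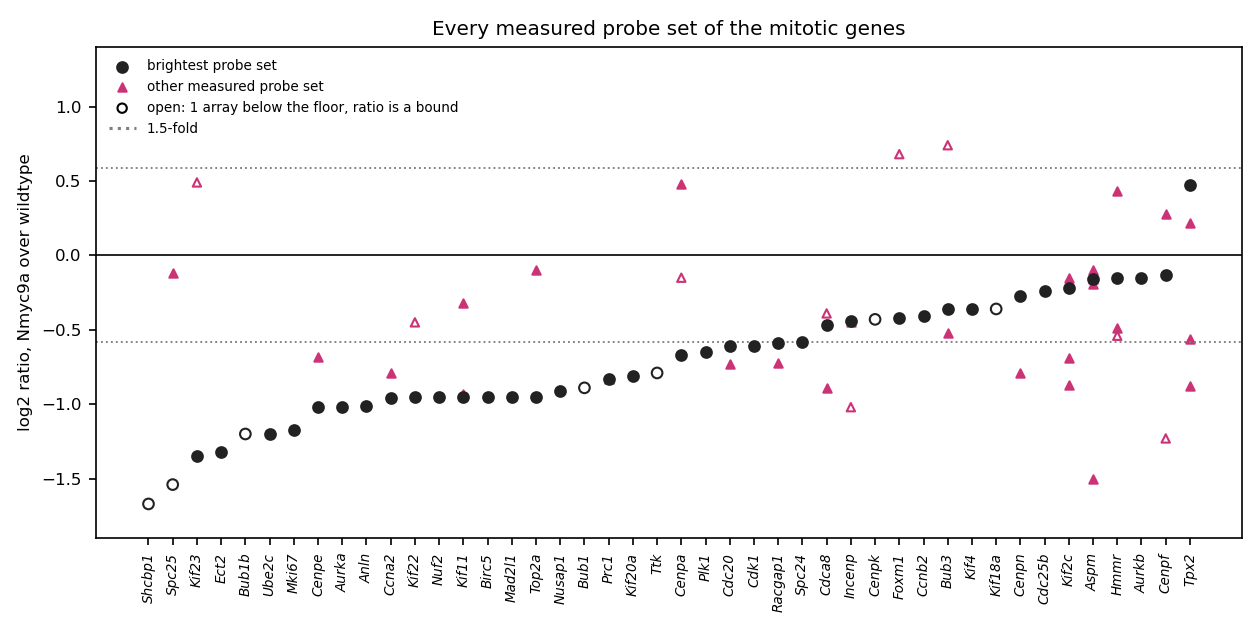
Log2 ratio of Nmyc9a over wildtype (vertical axis) for every measured probe set of the 44 measured genes, ordered by the brightest probe set (circles), with other probe sets as triangles, bounds as open symbols and 1.5-fold dotted. Of the 80 probe sets 72 lie below 0, and the probe sets of Kif23 lie furthest apart (-1.35 and 0.49), followed by Cenpf (-1.23 to 0.28) and Spc25 (-1.54 and -0.12).

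Other genes of cell division were lower in part. Counts for these lists are at 1.5-fold, where 9.71% of all measured genes were lower and 6.32% higher. Of 21 measured further kinetochore genes, 6 were 1.5-fold lower and 1 higher (median -0.44). Cenpq, of the inner kinetochore, read 193 and 84.7 (2.28-fold lower) and Zwint, which tethers checkpoint proteins, 714 and 398, while Nsl1 of the Mis12 complex was higher at 93.9 and 147 and its partner Pmf1 read 325 and 383. Of 25 genes of mitotic entry and exit, 9 were lower and 1 higher (median -0.27). The Cdk-binding subunits Cks2 (546 and 236) and Cks1b (1086 and 544) were lowest, while Cdca3 read 116 and 157 and Kif24, a kinesin of centrioles, 62.7 and 107. Of 25 centrosome and spindle pole genes, 8 were lower and 2 higher (median -0.35). Haus1 of the augmin complex read 217 and 84.3 and Plk4, the kinase of centriole duplication, 252 and 117, whereas Pcnt, the pericentrin scaffold, was 2.60-fold higher (109 and 283) and Tubgcp4 of the gamma-tubulin ring read 153 and 257.

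The list of the anaphase promoting complex, whose core resting cells also use, held its co-activator Fzr1, its inhibitor Fbxo5 and the enzyme Ube2s too. In this list 4 of 17 genes were 1.5-fold lower, Ube2s (741 and 491) among them, and 0 higher (median -0.28). Of all measured genes 9.71% were lower and 6.32% higher. Cdc16 read 754 and 432 and Anapc13 read 551 and 364, while Anapc10 read 264 and 384 and Anapc15 read 112 and 128. Kinesins of transport were 1.5-fold lower in 2 of 19 (10.5%), near the share of all measured genes, and higher in 0. Their median was -0.06 (0.00 after loess), beside -0.09 for all measured genes. The 2 were Kif26a (156 and 82.2) and Kifap3, the adaptor of kinesin-2 (316 and 206), and the highest were Kif21b at 0.33 and Kif9 at 0.29. Cytokinesis proteins with other duties in resting cells, such as RhoA and the septins, had 0 of 18 past 1.5-fold either way (median -0.19, and -0.04 after loess), from Chmp2a at -0.58 and Myh10 at -0.50 to Actb at 0.09 and Pdcd6ip at 0.35. The difference between these lists and the mitotic genes was not tested.

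Regulators of the cycle varied, counted at the same 1.5-fold size, beside 9.71% lower and 6.32% higher of all measured genes. Of 20 measured genes of the MuvB, E2F and NF-Y factors, 4 were lower and 1 higher (median -0.26). Rbl1 (p107) read 165 and 94.6 and E2f1 read 141 and 84.6, while Rbl2 (p130) read 118 and 146. Lin52 of MuvB read 46.8 and 119, a log2 ratio of 1.27 or higher. Its value was -0.20 after quantile normalization and -0.17 after loess. The brightest probe set was chosen anew after each scaling, so these 2 values may come from another Lin52 probe set. Of 7 measured Cdk inhibitors, 0 passed 1.5-fold either way (median -0.27), from Cdkn2d at -0.48 and Cdkn3 at -0.44 to Cdkn2b at -0.08 and Cdkn1b (p27), which holds cells in rest, at 0.12 (559 and 609).

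**Figure D5:**
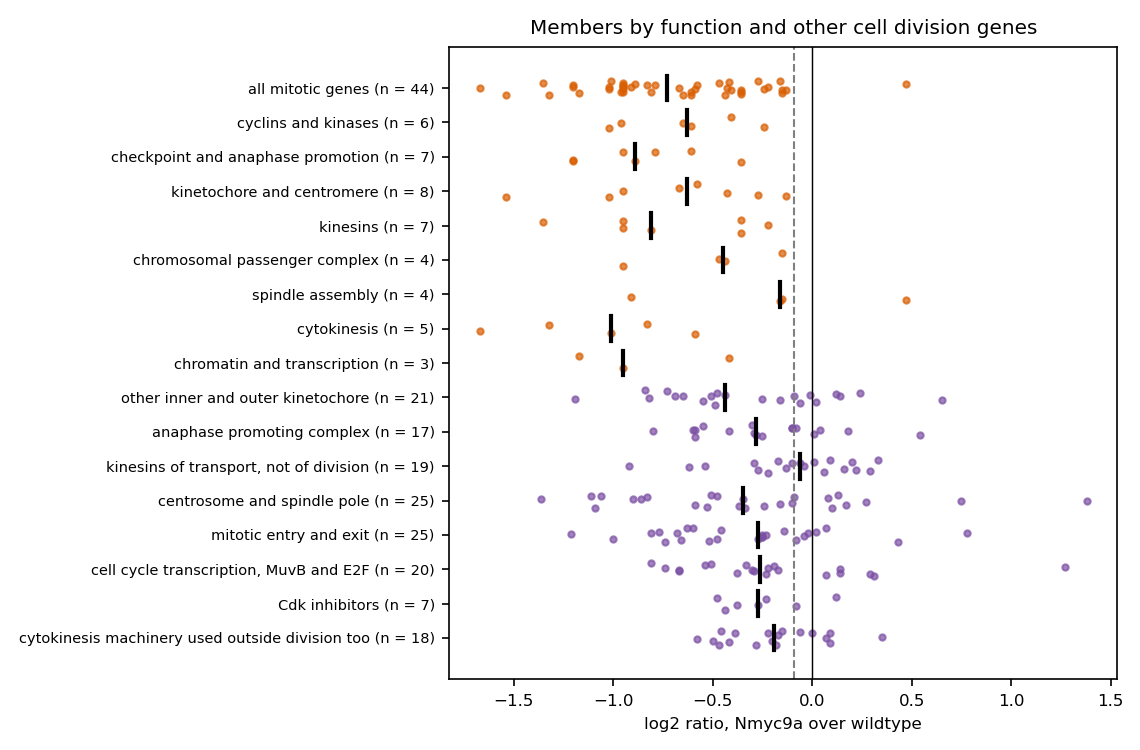
Log2 ratio of Nmyc9a over wildtype (horizontal axis) for each measured gene (points, with vertical jitter) of the mitotic genes, their 8 function groups and 8 lists of other cell division genes, with list medians as black bars and the median of all measured genes (-0.09) dashed. Cytokinesis genes have a median of -1.01, spindle assembly genes of -0.16 and transport kinesins of -0.06.

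Some markers of other tissues differed between the arrays as well. Counts here are of genes at least 1.5-fold higher or lower, beside 6.32% and 9.71% of all measured genes. Liver markers were 1.5-fold higher on the array labelled Nmyc9a in 5 of 7 measured genes (Alb 140 and 558), and all 7 lay above 0. Summed signal over 10 liver markers was 442 and 1429. Skeletal muscle markers were 1.5-fold higher in 2 of 4 (Acta1 41.1 and 219, Mylpf 53.6 and 147), and all 4 lay above 0. Sums were 450 and 959. Erythroid markers were 1.5-fold lower in 2 of 5, Trim10 (219 and 86.1) and Slc4a1 (604 and 354), and all 5 lay below 0. Sums were 5637 and 4171, and Epb42 and Hemgn were below the floor. Heart markers were 1.5-fold higher in 1 of 6 (Myh6, 282 and 444) and 1.5-fold lower in 0, while 4 of the 6 lay below 0. Sums were 3117 and 3122. Macrophage and granulocyte markers were 1.5-fold lower in 1 of 8 (S100a9, 999 and 528), 12.5% and near the share of all genes. None was 1.5-fold higher. Sums were 7474 and 7469, to which Lyz2 (3626 and 4517, less than 1.5-fold) added in the other direction. Thymus markers summed to 264 and 292, and 6 of 8, Rag1 and Cd3e among them, were below the floor. The part of these differences in the lower mitotic signal was not tested.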

How the data were processed

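Whole-lung RNA of 2 groups was profiled on 1 array each. The authors deposited a linear signal intensity for 45101 probe sets per array, with scaling and scanner software not stated in the labels. The mean without the lowest and highest 2% of probe sets was 150 on both arrays. After 64 control probe sets were set aside, 45037 remained, of which 34945 named 1 gene, 932 named several and 9160 were not listed with a gene. Symbols were updated through Entrez identifiers. The Nmyc9a array was scaled by the median ratio, and signals under the 40th percentile (49.3) were set to that floor, after which log2 ratios were computed. A gene took its probe set with the highest mean signal.

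No test was run, since each group had 1 array; the number of arrays limits the precision. Genes were counted at 1.5-fold. All members are named. From each of the 8 lists of other cell division genes the 2 highest and 2 lowest measured genes are named, with examples from the marker lists, and a member's other probe sets where they differed in sign or by over 1 (log2); some further ones are given to show agreement. Members and lists were chosen with earlier results of these data known. The procedure was tested on simulated data, with 2-fold changes seeded in brighter genes only. The simulated noise was smaller than the spread between probe sets found here. That test thus cannot show how often noise alone gives a 1.5-fold difference. Alternatives were 4 scalings, other floors, a pseudocount of 16, other choices of probe sets and 2 other size rules. Work was done in Python 3.11.15 with numpy 2.4.6, pandas 2.3.3, and statsmodels 0.14.6 for loess (span 0.3).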

Additional observations from a re-analysis of the deposited data

How the results depend on the processing

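The median log2 ratio of the mitotic genes stayed between -0.82 (quantile normalization) and -0.61 (floor at the 60th percentile). Members 1.5-fold lower numbered from 18 of 34 measured (without x, s and a probe sets) to 30 of 49 (floor at the 20th percentile). Of all measured genes, 9.12% were lower in the former setting and 11.7% in the latter. No member was 1.5-fold higher under any of the alternatives run. Of all measured genes, 3.79% (floor at the 60th percentile) to 10.5% (floor at the 20th percentile) were. Moves of a median by less than the probe set SD of 0.40 were taken as small. This is a loose rule, since that SD describes single probe sets of a gene and not a median over genes. By it, moves of the kinetochore and centromere median from -0.63 to -0.27 and of the kinesin median from -0.81 to -0.46 counted as small. At 2-fold 10 members and 13 probe sets were lower, and at 3-fold 1 member and 1 probe set, in place of 27 and 41. Of all measured genes, 1.38% were lower at 2-fold and 0.0873% at 3-fold. The probe set count was 22 of 46 at the 60th percentile floor and 24 of 49 without x, s and a probe sets, where fewer probe sets were counted. Shares of all probe sets were not counted for these settings, nor for the 2 other size rules. Of the 44 measured members 43 lay below 0 in each of the 5 scalings, all but Tpx2, and 24 were 1.5-fold lower in each. Counting only genes at or above the floor on both arrays was added after the data were seen. Group medians stayed below 0 throughout. By the median of probe sets, that of kinesins was -0.46, of chromatin and transcription -0.52 and of spindle assembly -0.25; without x, s and a probe sets, that of kinetochore and centromere was -0.27 and of chromatin and transcription -0.42. Spindle assembly was at -0.10 with arrays centred on probe sets with 1 gene. No paired analysis was possible because each group held 1 array. Leaving out a replicate was not possible for the same reason. Signals near the floor limit what can be read for Ndc80, Cenph, Cdc25c, Kif15 and Kif20b.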

Other observations

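Among the other lists, TTTGAA was found in the windows of 11 of 23 genes of mitotic entry and exit (47.8%), 10 of 27 other kinetochore genes (37.0%) and 7 of 18 cell cycle transcription genes (38.9%). It was found for 3 of 16 genes of the anaphase promoting complex (18.8%), 4 of 22 centrosome genes (18.2%) and 3 of 18 transport kinesins (16.7%). Cytokinesis genes with duties in resting cells held it in 1 of 13 (7.69%). Of all genes with a window 20.2% held TTTGAA, and of those measured here 14.6%. Among the mitotic genes, all 4 cytokinesis genes with a window and 7 of 8 kinesins held it.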
